A study of Mus musculus with 10 samples.

Results

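The data described here are the counts of 10 glutathione S-transferase genes in the gastrocnemius of 10 smoke-exposed male C57BL6J mice. The genes, *Gsta4*, *Gstm1*, *Gstm2*, *Gstm5*, *Gstp1*, *Gstt1*, *Gstk1*, *Gstz1*, *Mgst1* and *Mgst3*, were picked by name from the 49315 gene identifiers of the count table, and all 10 were found. There were 5 AHRfl mice (mice 11, 12, 13, 15 and 33) and 5 AHRmKO mice (mice 8, 9, 19, 22 and 34). AHRfl mice carry the floxed allele of the aryl hydrocarbon receptor (AHR) without Cre. AHRmKO mice carry the floxed allele and the HSA-MCM transgene, a MerCreMer recombinase under the human ACTA1 promoter that acts in myofibres once tamoxifen is given. Both genotypes breathed cigarette smoke for 16 weeks, in 2 exposures of 1 h on 5 days per week at 220 ± 80 mg/m3. The labels place the start of smoke 4 weeks after tamoxifen and the harvest 72 h after the final exposure, whereas the study's main text gives a shorter interval after tamoxifen and a range of hours for the harvest. The study calls its smoke-exposed mice aged, but their ages in weeks or months are not given in the sources used here, and mice kept in air are not part of the comparison. The comparison asks whether the level of these enzymes in smoke-exposed muscle depends on AHR in the myofibre. The study states that AHR activation is back at baseline by the time of harvest. Levels sooner after an exposure were not measured in these mice. Endothelial cells, fibroblasts and other cells of the muscle keep their AHR in both genotypes.

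Glutathione S-transferases join reduced glutathione to reactive electrophiles, such as aldehydes from lipid peroxidation and constituents of smoke, so that the conjugates can be exported from the cell. The cytosolic enzymes fall into classes named by Greek letters, the kappa enzyme lies in mitochondria and peroxisomes, and the MAPEG enzymes are a separate family of membrane proteins. In liver, several genes of these families are known targets of AHR, which binds xenobiotic response elements with its partner ARNT, and of NRF2, which binds antioxidant response elements.

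Total counts were between 30393035 and 37954388 per mouse, and no library held the same counts as another. Of the 14714 genes with enough counts to be tested, 1 passed an adjusted p of 0.05 in edgeR's quasi-likelihood test. *Ahr* itself was at 2.02 ± 0.681 CPM (normalized counts scaled to a library of common size, SD, n = 5) in AHRfl and 1.58 ± 0.443 CPM (SD, n = 5) in AHRmKO muscle, and the difference was within their spread (exact permutation p = 0.294, two-sided). The gene count sums all exons and the loxP sites flank exon 2, so it is a weak check of the labels. The log2 fold change of *Ahr* was -0.35, but -0.13 without AHRfl 11 and -0.48 without AHRmKO 9. The 7 fast-fibre genes had the highest sum of the marker lists in every library, at 123105 to 157717 CPM in AHRfl and 134736 to 154586 CPM in AHRmKO mice. The 8 slow-fibre genes differed widely between mice, from 90.03 to 2071 summed CPM in AHRfl and from 253 to 2490.05 in AHRmKO. *Xist*, the RNA of the inactive X chromosome, had 44 to 75 counts in 5 libraries (3 AHRfl and 2 AHRmKO) and 0 to 3 in the others. *Ddx3y*, a Y-linked gene, had 1852 to 2723 counts in every library. With a term for this split, added after seeing the data, the log2 fold changes of *Gstm1* and *Mgst1* were 0.16 and -0.29, and 0 of the 10 genes passed the threshold.

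All 10 glutathione S-transferase genes were expressed in every mouse, with 55 counts of *Gstt1* in mouse AHRfl 12 as the lowest. Compared per length, as CPM per kb of exon, their mean levels in AHRfl muscle covered a range from 1.76 for *Gstt1* to 176 for *Mgst3*. *Mgst3*, a microsomal enzyme with glutathione transferase and peroxidase activity, ranked first in every mouse and held 37.5% ± 2.27 (SD, n = 5) of the summed level per kb in AHRfl and 35.7% ± 2.75 (SD, n = 5) in AHRmKO muscle. *Gstp1*, the pi-class enzyme, followed at 85.8 CPM per kb in AHRfl, and *Gstm1*, the leading mu-class enzyme, at 66.0. Then came *Gstm5* at 49.0, *Gstm2* at 32.1, *Gstk1* at 22.1, *Mgst1* at 21.4, *Gsta4* at 9.85 and *Gstz1* at 6.23 CPM per kb. The later places depend on the division by exon length. This length covers all annotated exons of a gene, from 1 transcript for *Mgst3* and 9 for *Gstp1*, and the shares rest on it too. In CPM, *Mgst1* (43.2) was above *Gstk1* (32.5) and *Gstz1* (31.7) above *Gsta4* (12.5) in AHRfl muscle.

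The order of the 10 levels was nearly fixed across the mice. Of the 9 pairs of neighbours in it, 7 kept their order in all 10 mice. *Gstp1* was above *Gstm1* in 9 of 10 mice, with AHRmKO mice in that order in 4 of 5. *Gstk1* was above *Mgst1* in 8 of 10 mice, 4 of 5 in each genotype. These 2 pairs overlapped in their levels, with means that differed 1.21-fold and 1.14-fold. The level summed over the 10 genes was 471 ± 18.2 CPM per kb (SD, n = 5) in AHRfl and 464 ± 14.9 (SD, n = 5) in AHRmKO mice, with ranges of 453 to 499.9 and 446 to 486 that overlapped.

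**Figure D1:**
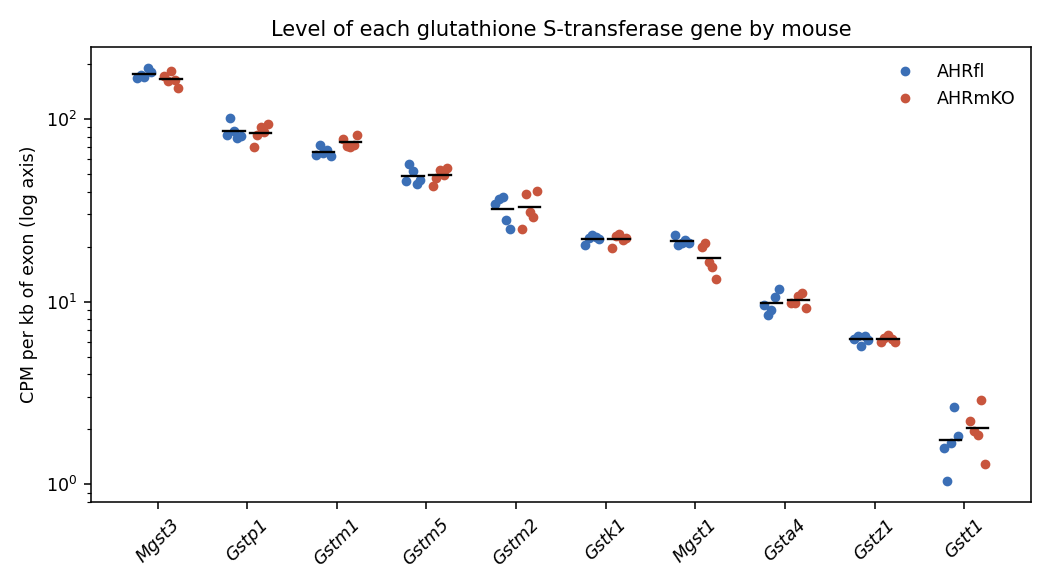
CPM per kb of exon (log axis) of the 10 glutathione S-transferase genes, with 1 point per mouse, blue for AHRfl and red for AHRmKO, and black lines at the genotype means. The genes span from about *Gstt1* at 1.76 to *Mgst3* at 176 CPM per kb in AHRfl mice, and both genotypes follow the same order of means.

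The promoters that the results turn on are shown here because *Gstm1* and *Mgst1* had the lowest p of the 10 genes and because *Gstm5* and *Gstp1* varied together between mice. RefSeq windows of 300 bases, 250 before and 50 after a RefSeq transcript start, were at hand for 9 of the 10 genes (build GRCm38.p6). Where a gene had 2 windows (*Gstm1*, *Gstz1* and *Mgst1*), the one nearest to the GENCODE start was used. The RefSeq start of the window is the GENCODE start for *Gstm1*, and it lies 33 bases inside the GENCODE gene for *Gstm5*, 73 for *Gstp1* and 211 for *Mgst1*. In 4 of the 9, *Gstm1*, *Gstm5*, *Gstp1* and *Mgst3*, the window held the core of the xenobiotic response element, GCGTG or CACGC on the other strand, and 32.4% of all 32851 windows of this length held it. In 2 of the 9, *Gstm5* and *Mgst1*, it held the core of the antioxidant response element, TGACNNNGC or GCNNNGTCA on the other strand, against 12.4% of all windows. A match of letters is a description and not a bound site. In the sequences, read 5′ to 3′ along the gene, the capitals mark these cores. The windows are chr3:107895604-107895903 on the plus strand for *Gstm5*, chr3:108017924-108018223 on the minus strand for *Gstm1*, chr19:4037863-4038162 on the minus strand for *Gstp1* and chr6:138140277-138140576 on the plus strand for *Mgst1*.
Gstm1: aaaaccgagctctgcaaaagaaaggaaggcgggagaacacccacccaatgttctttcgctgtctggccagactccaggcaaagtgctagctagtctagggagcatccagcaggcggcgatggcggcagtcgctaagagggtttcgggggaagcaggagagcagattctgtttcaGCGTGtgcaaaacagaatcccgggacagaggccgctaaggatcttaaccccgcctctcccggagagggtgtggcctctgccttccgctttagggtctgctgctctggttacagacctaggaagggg
Gstm5: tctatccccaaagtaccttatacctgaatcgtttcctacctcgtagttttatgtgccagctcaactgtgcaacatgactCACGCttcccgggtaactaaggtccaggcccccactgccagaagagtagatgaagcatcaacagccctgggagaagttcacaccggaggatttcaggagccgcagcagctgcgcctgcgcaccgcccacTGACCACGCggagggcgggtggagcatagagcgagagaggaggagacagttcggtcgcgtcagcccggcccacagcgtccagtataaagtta
Gstp1: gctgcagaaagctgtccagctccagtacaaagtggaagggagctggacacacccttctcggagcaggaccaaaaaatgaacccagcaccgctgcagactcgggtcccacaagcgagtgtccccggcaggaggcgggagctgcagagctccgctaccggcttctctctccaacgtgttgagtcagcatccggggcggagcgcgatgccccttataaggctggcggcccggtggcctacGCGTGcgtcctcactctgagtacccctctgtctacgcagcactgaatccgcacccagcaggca
Mgst1: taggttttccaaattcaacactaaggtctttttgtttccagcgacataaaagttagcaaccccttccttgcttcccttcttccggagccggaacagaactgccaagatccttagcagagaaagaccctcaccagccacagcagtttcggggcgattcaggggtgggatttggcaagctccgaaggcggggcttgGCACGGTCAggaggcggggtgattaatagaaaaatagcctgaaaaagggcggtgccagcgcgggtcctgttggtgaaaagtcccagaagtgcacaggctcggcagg

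The *Gstm1* window held 1 xenobiotic core that begins 76 bases before the RefSeq start, from which all positions here are counted. The *Gstp1* window held 1, beginning 13 bases before it. The *Gstm5* window held 2 xenobiotic cores, at 171 and 38 bases before the start, and the nearer one lies inside the antioxidant core that begins 42 bases before it. The *Mgst1* window held no xenobiotic core and 1 antioxidant core, at 56 bases before that start and thus inside the GENCODE gene. The second *Mgst1* window held neither core, and the second *Gstm1* window held 1 xenobiotic core. *Gstm2*, *Gstt1*, *Gstk1* and *Gstz1* held neither.

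None of the 10 genes passed an adjusted p of 0.05 in edgeR's quasi-likelihood test over 14714 genes, where 0.0068% of all genes did. DESeq2 and limma-voom also called 0 of the 10. An unadjusted p under 0.05 was found for 2, *Gstm1* and *Mgst1*, which lay on opposite sides of 0, and for 6.61% of all genes tested. No member separated the 5 AHRfl from the 5 AHRmKO mice without overlap, as 1.4% of all genes did. Of the log2 fold changes 5 were above and 5 below 0, where 48.5% of all genes were below it. Their median was 0.0024, beside 0.0056 over all genes tested.

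Among the mu-class genes of chromosome 3, *Gstm1* had the lowest p (ENSMUSG00000058135, chr3:108012255-108017973 of GRCm38, minus strand). Its level was 93.5, 106, 95.6, 98.9 and 92.1 CPM in AHRfl mice 11, 12, 13, 15 and 33, and 115, 105, 104, 106 and 119.9 CPM in AHRmKO mice 8, 9, 19, 22 and 34. Mouse AHRfl 12 was above 3 of the AHRmKO mice, and without it the groups would not overlap. The means were 97.3 ± 5.62 and 109.9 ± 7.12 CPM (SD, n = 5 each), and the log2 fold change was 0.18 (SE 0.0646, 95% interval 0.04 to 0.31). The p was 0.0171 and the adjusted p 0.665 in edgeR's test, and the two-sided exact permutation test gave p = 0.0317. Mouse AHRmKO 34 had the highest level, and without it the log2 fold change was 0.14, the lowest of the values with 1 mouse left out.

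*Gstm2* (ENSMUSG00000040562, chr3:107981702-107986453, minus strand) is a mu-class gene with a high level in muscle. It ranged from 41.7 to 62.6 CPM in AHRfl and from 42.0 to 67.9 CPM in AHRmKO mice, and the ranges covered each other almost fully. The means were 53.9 ± 9.18 and 55.1 ± 10.97 CPM (SD, n = 5), and the log2 fold change was 0.03 (95% interval -0.29 to 0.36, adjusted p = 0.984 in edgeR's test). *Gstm5* (ENSMUSG00000004032, chr3:107895821-107898686, plus strand), the mu-class gene farther along the cluster, was at 62.6 ± 6.54 and 63.0 ± 5.35 CPM (SD, n = 5). Its log2 fold change was 0.01 (95% interval -0.17 to 0.18). Of the exon bases of *Gstm5*, 13.9% lie opposite those of the antisense gene *4933431E20Rik*, and reads on them cannot be assigned without strand.

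*Gstp1* (ENSMUSG00000060803, chr19:4035407-4037985, minus strand) was at 127, 158, 133, 121 and 125 CPM in AHRfl mice 11, 12, 13, 15 and 33, and at 108, 126, 139.95, 132 and 145 CPM in AHRmKO mice 8, 9, 19, 22 and 34. Mice AHRfl 12 and AHRmKO 8 were the extremes and the groups overlapped. The log2 fold change was -0.03 (95% interval -0.23 to 0.17, adjusted p = 0.977 in edgeR's test). *Gstp1* shares 17.6% of the 150-nt words of its transcripts, and 29.2% of the 75-nt words, with its neighbour *Gstp2*. The authors counted uniquely mapped reads, so reads from such stretches may be missing from both genes. *Gstp2* was at 47.8 ± 6.61 and 46.5 ± 5.34 CPM (SD, n = 5), with a log2 fold change of -0.04.

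*Gsta4* (ENSMUSG00000032348, chr9:78182774-78209349, plus strand) is the alpha-class enzyme that conjugates 4-hydroxynonenal, an aldehyde of lipid peroxidation. It lay between 10.7 and 14.8 CPM in AHRfl and between 11.7 and 14.1 CPM in AHRmKO mice, so that the AHRmKO range fell inside the AHRfl range. The log2 fold change was 0.05 (95% interval -0.16 to 0.25, adjusted p = 0.957 in edgeR's test). *Gstt1* (ENSMUSG00000001663, chr10:75783813-75798584, minus strand), the theta-class enzyme known for small halogenated compounds, was the least expressed and the most variable. It was at 2.42, 1.59, 2.57, 4.03 and 2.81 CPM in AHRfl mice 11, 12, 13, 15 and 33, and at 3.39, 2.98, 2.83, 4.39 and 1.97 CPM in AHRmKO mice 8, 9, 19, 22 and 34. The highest mouse had 2.77 times the lowest, against 1.15 times for *Gstz1*. The log2 fold change was 0.22 with a 95% interval from -0.31 to 0.74 (adjusted p = 0.907 in edgeR's test), so no difference was detected. Without AHRmKO 22 it was 0.06 and without AHRfl 15 it was 0.41.

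*Gstz1* and *Gstk1* were the steadiest of the 10. *Gstz1* (ENSMUSG00000021033, chr12:87147165-87164723, plus strand) encodes the zeta-class enzyme of tyrosine breakdown, maleylacetoacetate isomerase. It was at 31.7 ± 1.58 CPM in AHRfl and 31.6 ± 1.22 CPM in AHRmKO muscle (SD, n = 5), and its 95% interval for the log2 fold change was -0.13 to 0.12. Of its exon bases, 9.14% lie opposite those of *Pomt2*. *Gstk1* (ENSMUSG00000029864, chr6:42245935-42250447, plus strand), the kappa enzyme, was at 32.5 ± 1.51 and 32.2 ± 2.05 CPM (SD, n = 5), with an interval from -0.15 to 0.13.

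Of the microsomal genes, *Mgst1* (ENSMUSG00000008540, chr6:138140316-138156755, plus strand), a membrane enzyme of the endoplasmic reticulum and outer mitochondrial membrane, had the lowest p of the 10. It was at 46.8, 41.0, 42.0, 44.0 and 42.1 CPM in AHRfl mice 11, 12, 13, 15 and 33, and at 40.2, 42.1, 33.02, 31.3 and 26.8 CPM in AHRmKO mice 8, 9, 19, 22 and 34. The AHRfl mice were close together, AHRmKO 8, 19, 22 and 34 were below all of them, and AHRmKO 9 was within their range. The means were 43.2 ± 2.32 and 34.7 ± 6.37 CPM (SD, n = 5), and the log2 fold change was -0.31 (SE 0.108, 95% interval -0.55 to -0.08). The p was 0.0118 and the adjusted p 0.665 in edgeR's test, and the two-sided exact permutation test gave p = 0.0317. Leaving out each mouse gave -0.39 (without AHRmKO 9) to -0.24 (without AHRmKO 34). Mouse AHRmKO 34 had the lowest *Mgst1*, the lowest *Mgst3* and the highest *Gstm1* of the 10 mice. No marker list given here passed the adjustment with *Mgst1*. With the endothelial score, described below, r was 0.46 over 10 mice (permutation p = 0.179, adjusted p = 0.536; rho 0.53, permutation p = 0.125) and 0.67 once the 2 mice with the most extreme scores were left out. Within genotypes it was 0.72 in AHRfl and 0.90 in AHRmKO mice. With the smooth muscle score r was 0.54 (permutation p = 0.0963, adjusted p = 0.396; rho 0.58, permutation p = 0.089), 0.50 once the 2 mice with the most extreme scores were left out, and 0.85 and 0.72 within AHRfl and AHRmKO. With the adipocyte score r was 0.48 (permutation p = 0.168, adjusted p = 0.536; rho 0.43, permutation p = 0.218), 0.26 once the 2 such mice were left out, and 0.57 and 0.87 within AHRfl and AHRmKO. The fast-fibre score ran the other way, with r = -0.49 (permutation p = 0.147, adjusted p = 0.51; rho -0.65, permutation p = 0.0489, adjusted p = 0.286) and -0.32 once the 2 such mice were left out. Within AHRfl and AHRmKO it was -0.51 and -0.44. These scores did not separate the genotypes (two-sided exact permutation test, p = 0.627, 0.778, 0.794 and 0.222 for endothelial, smooth muscle, adipocyte and fast fibre). The marker list with the strongest relation to *Mgst1* is not reported here, so the difference in *Mgst1* is given without it.

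*Mgst3* (ENSMUSG00000026688, chr1:167371966-167393841, minus strand) was at 183, 192, 186, 208 and 198 CPM in AHRfl mice 11, 12, 13, 15 and 33, and at 189, 177, 200.1, 180.0 and 162 CPM in AHRmKO mice 8, 9, 19, 22 and 34. The means were 193 ± 10.2 and 182 ± 14.2 CPM (SD, n = 5). The groups overlapped, with a log2 fold change of -0.09 (95% interval -0.24 to 0.06, adjusted p = 0.846 in edgeR's test; exact permutation p = 0.167). Leaving out each mouse gave -0.12 (without AHRmKO 19) to -0.05 (without AHRmKO 34).

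**Figure D2:**
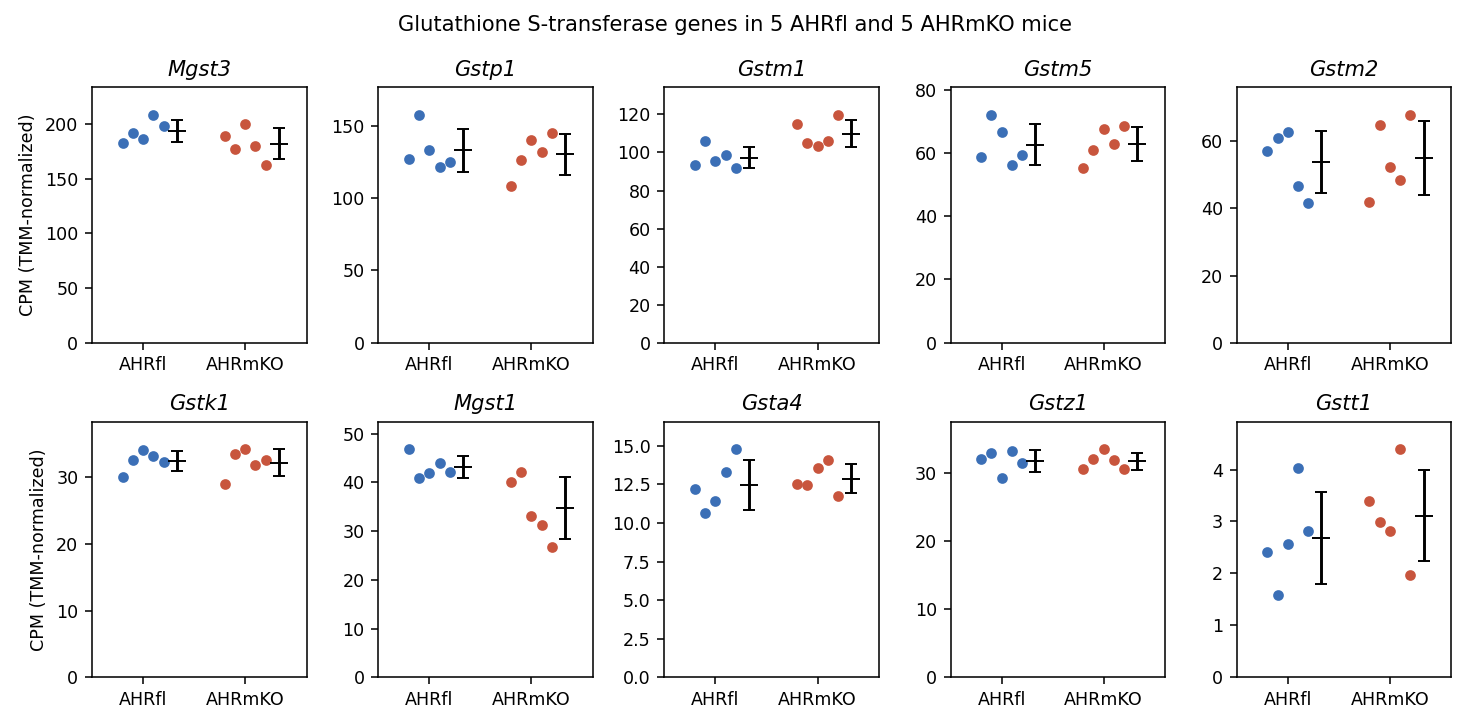
TMM-normalized CPM of the 10 genes in 5 AHRfl (blue) and 5 AHRmKO (red) mice, 1 point per mouse, with black bars at mean ± SD. The AHRmKO points of *Mgst1* reach down to 26.8 CPM, below the lowest AHRfl mouse at 41.0, while those of *Gstm1* lie between 104 and 119.9 CPM.

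**Figure D3:**
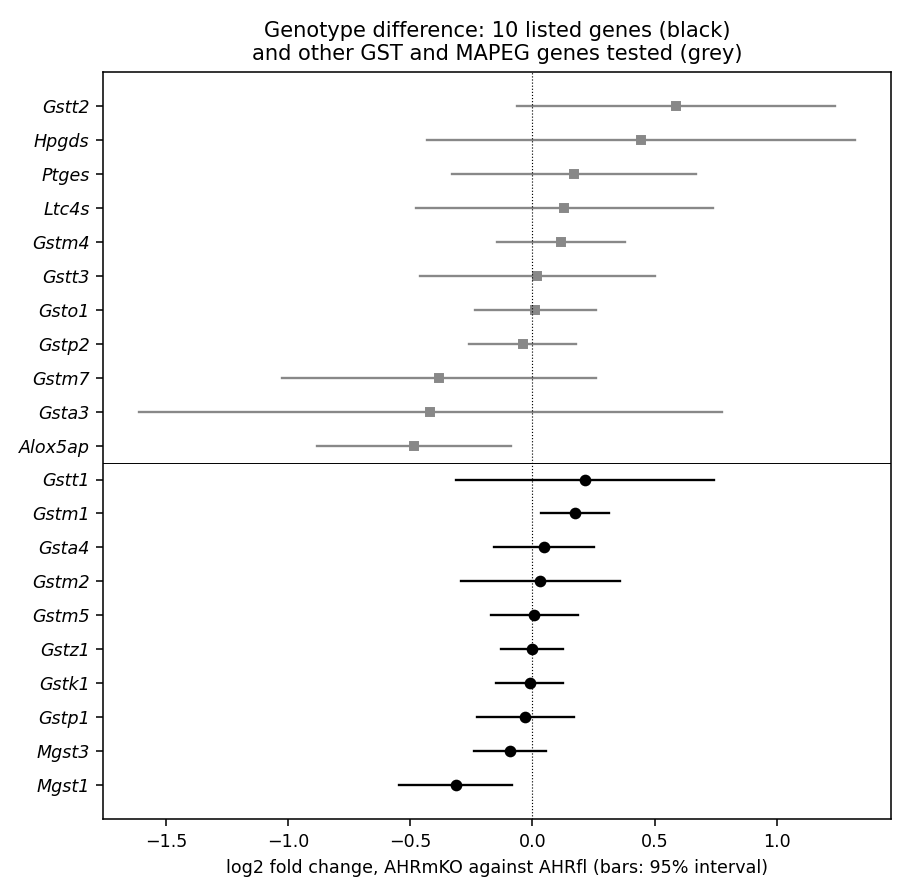
Log2 fold changes (AHRmKO against AHRfl, x axis) with 95% intervals for the 10 genes (black) and the other glutathione S-transferase and MAPEG genes tested (grey). Of the 10 only the intervals of *Gstm1*, 0.04 to 0.31, and *Mgst1*, -0.55 to -0.08, leave out 0.

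Between the mice, *Gstm5* and *Gstp1* varied together. Across the 10 mice their log2 CPM had r = 0.95 (permutation p = 1e-05, the smallest that 100000 resamples can give, adjusted p = 0.00045 over the 45 pairs of the 10 genes; rho 0.96, permutation p = 8e-05, adjusted p = 0.0036). Leaving out the 2 mice with the most extreme *Gstm5* gave r = 0.95. It was 0.94 within AHRfl and 0.99 within AHRmKO mice. None of the other pairs passed an adjusted p of 0.05, and the next were *Gsta4* with *Gstt1* (r = 0.73, adjusted p = 0.217, permutation, and 0.46 once the 2 mice most extreme in *Gstt1* were left out) and *Gsta4* with *Gstm2* (r = -0.72, adjusted p = 0.217, permutation). *Gstm1* and *Mgst1*, whose genotype differences lie on opposite sides of 0, had r = -0.69 (permutation p = 0.03, adjusted p = 0.217), but -0.36 after centring on genotype.

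*Gstp1* and *Gstm5* also ran against the endothelial score, the mean log2 CPM of *Pecam1*, *Cdh5*, *Kdr*, *Tek*, *Emcn* and *Vwf*. All 6 were tested and none was at 0, and their summed level was 116 to 197 CPM in AHRfl and 129 to 249.8 CPM in AHRmKO mice. For *Gstp1* r was -0.92 (permutation p = 3e-05, adjusted p = 0.0027 over the 90 pairs of genes and marker lists; rho -0.94, permutation p = 2e-04), and it was -0.87 once the 2 mice with the most extreme scores were left out. Within genotypes it was -0.92 in AHRfl and -0.94 in AHRmKO. For *Gstm5* r was -0.92 (permutation p = 0.00031, adjusted p = 0.014; rho -0.93), and -0.86 once the same 2 mice were left out. The endothelial score did not separate the genotypes (difference 0.11, two-sided exact permutation test, p = 0.627). With the smooth muscle score r was -0.76 for *Gstm5* and -0.68 for *Gstp1* (permutation p = 0.00916 and 0.032, adjusted p = 0.118 and 0.202). With the slow-fibre score, described below, it was -0.68 for each (permutation p = 0.0359 and 0.0261, adjusted p = 0.202 and 0.196), but -0.38 and -0.29 without its 2 most extreme mice. The fast-fibre score ran with them, at r = 0.67 and 0.53 (permutation p = 0.0346 and 0.12, adjusted p = 0.202 and 0.443). In bulk muscle, fewer cells of a type and less RNA per cell cannot be told apart. The endothelial score as a covariate was an alternative added after seeing the data. With it, the log2 fold change of *Gstp1* was 0.02 and that of *Mgst1* -0.38 (adjusted p = 0.162 in edgeR's test).

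The slow-fibre score, the mean log2 CPM of *Myh7*, *Myl2*, *Myl3*, *Tnnt1*, *Tnni1*, *Tnnc1*, *Tpm3* and *Atp2a2*, had its strongest relations with 3 other members. *Gstm2* was lower where the score was higher (r = -0.85, permutation p = 0.00383, adjusted p = 0.0689), whereas *Gstt1* (r = 0.81, permutation p = 0.00363, adjusted p = 0.0689) and *Gsta4* (r = 0.79, permutation p = 0.00821, adjusted p = 0.118) were higher. Spearman's rho was -0.77, 0.71 and 0.71, and r was -0.87, 0.70 and 0.82 once the 2 mice with the most extreme scores were left out. None of these 3 passed the adjustment over 90 pairs. The same 3 genes ran in the same directions with the fibroblast score (*Col1a1*, *Col1a2*, *Col3a1*, *Dcn*, *Pdgfra* and *Lum*). There r was -0.76 for *Gstm2*, 0.73 for *Gstt1* and 0.69 for *Gsta4* (permutation p = 0.0152, 0.016 and 0.0295, adjusted p = 0.144, 0.144 and 0.202). Spearman's rho was -0.70, 0.64 and 0.67, and r was -0.79, 0.45 and 0.61 once the 2 mice with the most extreme scores were left out. *Gstm5* also ran against the fibroblast score (r = -0.73, permutation p = 0.0217, adjusted p = 0.177), with r = -0.82 once the same 2 mice were left out. *Gstk1* had r = -0.87 with the smooth muscle score (permutation p = 0.00321, adjusted p = 0.0689; rho -0.71), but -0.45 once the 2 most extreme mice were left out, so it rests on them. When the slow-fibre score entered the fit, the log2 fold change was 0.14 for *Gstm2*, 0.08 for *Gstt1* and -0.00076 for *Gsta4*, none past the threshold.

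**Figure D4:**
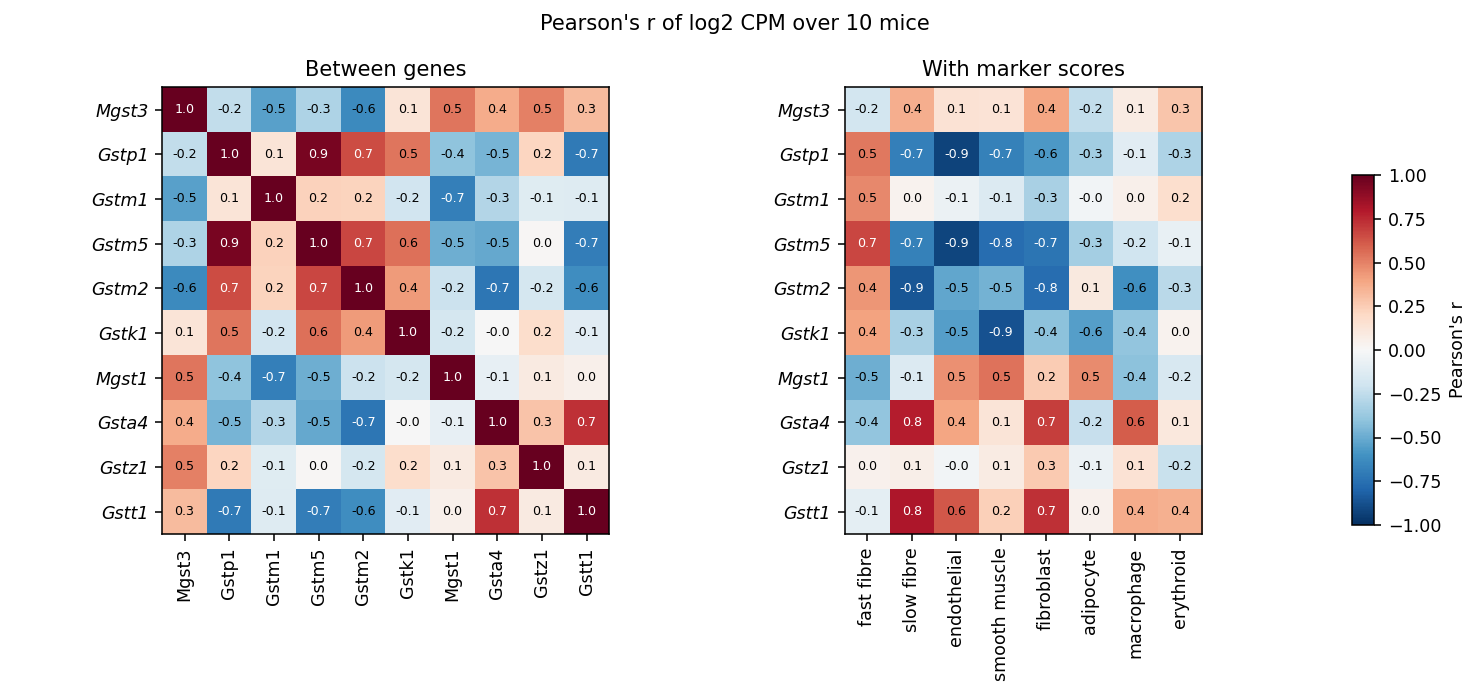
Pearson's r of log2 CPM over the 10 mice, between the 10 genes (left) and between each gene and 8 marker scores (right), from blue at -1 to red at 1. *Gstm5* with *Gstp1*, at 0.95, is the strongest pair of genes, and *Gstp1* with the endothelial score, at -0.92, the strongest pair with a marker list.

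**Figure D5:**
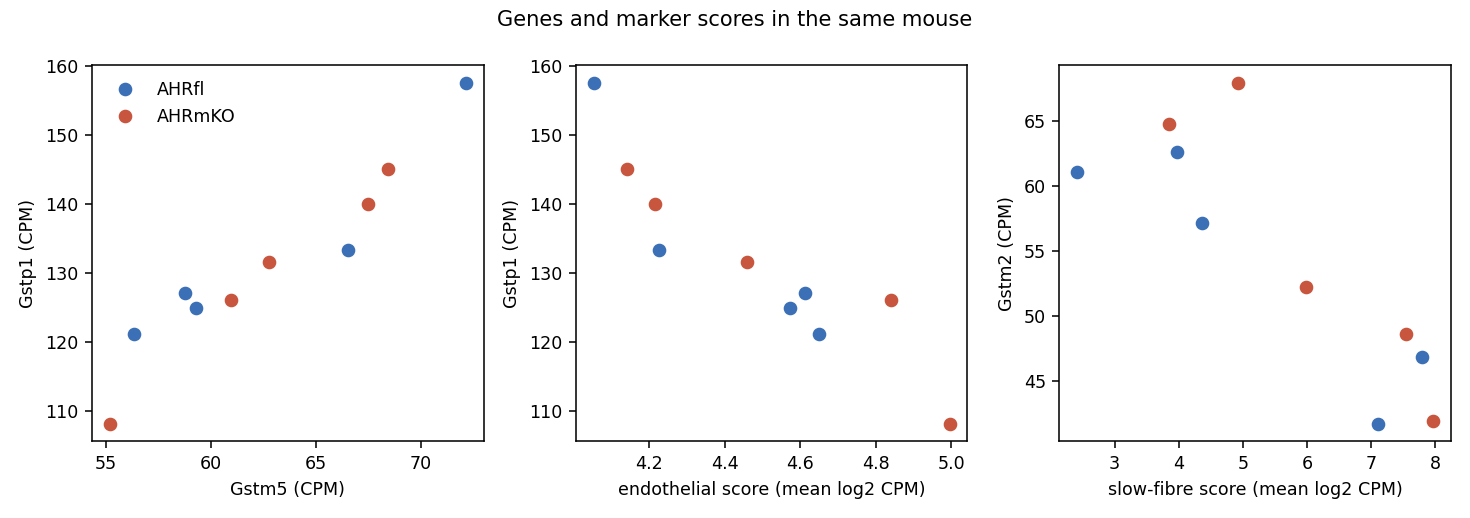
CPM of *Gstp1* against *Gstm5* (left), *Gstp1* against the endothelial score (middle) and *Gstm2* against the slow-fibre score (right), scores in mean log2 CPM, with 1 point per mouse, blue for AHRfl and red for AHRmKO. Mouse AHRfl 12 has the highest *Gstp1*, at 158 CPM, and mouse AHRmKO 8 the lowest, at 108 CPM, and mice of both genotypes lie along each trend.

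By a rule that took the 5 tested genes with the highest r after centring on genotype, the genes most like *Mgst1* were *Chpt1*, *Iffo2*, *Kcna2*, *B230219D22Rik* and *Vps26c* (r = 0.94 to 0.95 over 10 mice). Those most like *Gstt1* were *Zfp579*, *Cercam*, *Akr1b10*, *Dgat2* and *Mettl9* (r = 0.97 for each). They are the top of many genes and describe these mice only.

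Of the 20 other glutathione S-transferase and MAPEG genes listed, 19 were found and 11 tested. In edgeR's test 0 of the 11 passed the adjusted threshold and 1 the unadjusted one, which 6.61% of all genes tested passed. The median log2 fold change of the 11 was 0.02. *Alox5ap*, the MAPEG protein that presents arachidonate to 5-lipoxygenase, was at 2.90 ± 0.371 CPM in AHRfl and 2.07 ± 0.539 CPM in AHRmKO muscle (SD, n = 5; log2 fold change -0.49, adjusted p = 0.665 in edgeR's test). *Gstt2* was at 1.91 ± 0.799 and 2.87 ± 1.05 CPM (SD, n = 5; log2 fold change 0.59, adjusted p = 0.787 in edgeR's test) and *Gstm7* at 2.46 ± 0.875 and 1.88 ± 0.758 CPM (-0.38). *Gstm4*, at 13.8 ± 2.24 and 15.02 ± 2.05 CPM, and *Gsto1*, the omega-class enzyme, at 29.3 ± 4.16 and 29.5 ± 4.31 CPM (SD, n = 5), had log2 fold changes of 0.12 and 0.01. The remaining 5 tested, *Gsta3* (-0.42), *Hpgds* (0.45), *Ptges* (0.17), *Ltc4s* (0.13) and *Gstt3* (0.02), were under 1.6 CPM. *Gsta1*, *Gsta2*, *Gstm3*, *Gstm6*, *Gstp3*, *Gstt4*, *Gsto2* and *Mgst2* had 0 to 20 counts per mouse, too few to be tested.

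In the rest of the glutathione pathway, edgeR's test called 0 genes after adjustment. The unadjusted counts of each list stand beside 6.61% of all genes tested with an unadjusted p under 0.05. Of 9 genes of glutathione synthesis and reduction tested, 1 had an unadjusted p under 0.05. This was *Gsr*, which reduces glutathione disulfide and so restores the cosubstrate of the transferases. It was at 27.8 ± 1.78 and 21.8 ± 1.68 CPM (SD, n = 5), with a log2 fold change of -0.35 (adjusted p = 0.544 in edgeR's test). For *Gsr* the groups did not overlap, as for 1.4% of all genes tested. DESeq2 alone called it, with an adjusted p of 0.0279, as 1 of 21 genes. *Oplah* and *G6pdx* had log2 fold changes of 0.16 and -0.10, and the list's median was -0.03.

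Of the 6 glutathione peroxidase genes, edgeR's test called 0 after adjustment and gave 1 an unadjusted p under 0.05. *Gpx4*, the peroxidase of membrane phospholipids, was at 259 ± 19.04 and 229 ± 13.3 CPM (SD, n = 5; log2 fold change -0.18, adjusted p = 0.683 in edgeR's test). *Gpx7* and *Prdx6* had -0.23 and -0.10, and the list's median was -0.05. Of 14 genes of conjugate export and mercapturate formation tested, 0 passed after adjustment and 2 had an unadjusted p under 0.05. Of these 2, *Abcc5*, an organic anion exporter, was at 55.3 ± 4.46 and 66.0 ± 6.24 CPM (SD, n = 5). Its log2 fold change was 0.25 (adjusted p = 0.606 in edgeR's test). The other is not reported here. *Cndp2* had -0.14 with an unadjusted p of 0.098 in edgeR's test, and the list's median was 0.07.

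Of 12 genes in the list of AHR and NRF2 and the enzymes they control, 0 passed after adjustment and 1 had an unadjusted p under 0.05. *Txnrd1*, thioredoxin reductase and an NRF2 target, was at 74.8 ± 5.93 and 87.0 ± 13.6 CPM (SD, n = 5; log2 fold change 0.22, adjusted p = 0.744 in edgeR's test). *Cyp1a1*, the classical AHR target, had a log2 fold change of 0.36 (adjusted p = 0.792 in edgeR's test) and *Ahr* the value given above. The list's median was 0.12.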

How the data were processed

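RNA of the gastrocnemius was sequenced in 5 AHRfl and 5 AHRmKO mice, grouped by the labels. The authors trimmed the reads (Trimmomatic 0.36), aligned them to GRCm38 (STAR 2.5.2b) and deposited raw counts of uniquely mapped exonic reads per Ensembl gene from featureCounts, not normalized. The Ensembl release is not given in the sources used here. Strand-specific counting is given only as a condition, and whether these libraries were stranded is not stated. All 10 columns were used. Names, positions and exon lengths were read from GENCODE M21 (GRCm38), where 49056 of the 49315 identifiers were found.

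Genes were kept by filterByExpr (minimum count 10, minimum total 15), and TMM set the library sizes. AHRmKO was compared with AHRfl over 14714 genes by edgeR 4.0.16's robust quasi-likelihood test in R 4.3.3 with Benjamini-Hochberg adjustment. The same fit was also run on simulated counts with known changes. That run does not tell how small a difference in the 10 genes could be detected. The CPM were computed from the deposited counts, with a prior count of 2 for log2 CPM. Exact permutation tests ran over the 252 assignments of 5 and 5 mice and cannot give a p under 0.00794. Correlations used 100000 resamples. Each library is 1 numbered mouse, and the mouse is the unit of the tests. Reads carry no molecular identifiers. In the 10 libraries 3 counts equal 0.0788 to 0.0927 CPM on the normalized scale.

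The members and lists were chosen with earlier results of these data known. Named were all members, the other transferase and MAPEG genes tested, the 3 genes with the smallest p of each further list, *Ahr*, and the 5 genes most alike to the member with the smallest p and to the one with the largest spread within genotypes. Genes not tested and markers are named only to define a list. The values of 1 marker list, counted among the 90 pairs of genes and marker lists, and of 1 export gene are not reported here.

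The alternatives were DESeq2 1.42.0, limma-voom (limma 3.58.1), DESeq2's size factors, library size only, no filter beyond 1 count, at least 10 counts in every mouse, no robust estimation, a slow-fibre or adipocyte score as covariate and leaving out each mouse. The endothelial score and the presence of *Xist* as covariates were chosen after seeing the data.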

Additional observations from a re-analysis of the deposited data

How the results depend on the processing

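None of the 210 values of the 10 genes under 9 planned settings, 2 settings chosen after seeing the data and 10 fits without 1 mouse passed the adjusted threshold, and 25 changed sign, all of them in genes whose interval includes 0. *Gstm1* stayed between 0.16 and 0.19 over the settings (adjusted p 0.417 to 0.699) and between 0.14 and 0.21 without 1 mouse. *Mgst1* stayed between -0.38 and -0.29 (adjusted p 0.162 to 0.669) and between -0.39 and -0.24. *Gstm5* was -0.0088 with library size only and -0.016 with *Xist* presence. *Gstz1* was 0.0044 with *Xist* presence. With the slow-fibre score *Gsta4* was -0.00076 and *Gstp1* 0.023, and with the endothelial score *Gstp1* was 0.018 and *Gstk1* 0.0025. Without 1 mouse, *Gsta4* went from -0.0058 to 0.114, *Gstk1* from -0.038 to 0.025, *Gstm2* from -0.054 to 0.116, *Gstm5* from -0.028 to 0.063, *Gstp1* from -0.071 to 0.039 and *Gstz1* from -0.033 to 0.013. The median of the 10 genes went from -0.015 to 0.025 over the settings and from -0.020 to 0.041 without 1 mouse. The count of all genes past the threshold, 1, was 5 with no filter beyond 1 count, 2 with the slow-fibre score, 3 with the endothelial score, 21 with DESeq2 and 1 to 6 without 1 mouse, with 6 without AHRmKO 34. The pathway genes past it, 0, were 1 with DESeq2. The cause of these shifts was not tested. No paired analysis was made. The study used littermates without Cre as controls, but the litter of each mouse is not given in the sources used here. *Gstt1* went from 0.058 to 0.411 and *Mgst3* from -0.124 to -0.052 without 1 mouse. *Gstt1* had the fewest counts, 55 to 167 per mouse, and how far counting error limits each gene was not tested.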
